A study of Mus musculus with 6 samples.

Results

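The genes described here encode 10 secreted proteins of visceral endoderm, the outer epithelium of the mouse yolk sac. Afp, Ttr and Rbp4 encode carrier proteins, Apoa1, Apoa2, Apoa4, Apob, Apom and Apoe encode apolipoproteins, and Fga encodes a chain of fibrinogen. They were picked by name from the 35591 rows of the expression table, because their levels differed widely between libraries. The spread between libraries is therefore a property of the choice and is given below as a description. No threshold was part of the choice. All 10 genes passed the filter on low counts.

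RNA was sequenced from tailbud tissue dissected from 6 mouse embryos with 8 somites on the FVB/NJ background, 3 WT embryos (Smchd1+/+) and 3 embryos homozygous for MommeD43 (Smchd1MommeD43/MommeD43), an ENU-induced missense allele of the chromatin regulator Smchd1 that all cells of the embryo carry. Replicate 1 of each genotype was male, and replicates 2 and 3 were female. Both males came from the same mother and the 4 females from different mothers, so sex and litter cannot be told apart. Each library held the tailbud of a separate embryo, so there was no technical repeat. The tissue was cut below the last formed somite, and the methods state that the yolk sac was kept for genotyping.

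Levels are given as RPKM, reads of a gene scaled to its exon length and to the size of the library, which allows levels of different genes to be compared. Libraries held between 10957916 and 47298348 reads. Reads of any pair of libraries differed by more than sampling noise, with a mean chi-square per gene of 4.7 or more where noise alone gives about 1. Smchd1 was at 7.15 to 8.58 RPKM in the 6 libraries (log2 fold change -0.09 ± 0.09, SE; limma adjusted p = 0.999), a level that does not check a missense allele. Tailbud markers were present in every library. T, the transcription factor of early mesoderm, was at 188, 117 and 118 RPKM in WT and at 121, 141 and 141 RPKM in MommeD43.

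Visceral endoderm absorbs maternal nutrients and releases plasma proteins and lipoproteins toward the embryo before the liver forms. Alpha-fetoprotein is the main serum protein of the fetus, transthyretin carries thyroid hormone and binds retinol-binding protein, and apolipoproteins package lipid for transport. In the later embryo and the adult these genes are known mainly from liver and intestine, where transcription factors of the HNF1, HNF4 and FOXA families drive them. They are not known as genes of presomitic mesoderm.

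Promoter sequence is shown to place these factors' motifs beside the levels that follow. RefSeq (GRCm38.p6) gave 13 start sites for 9 of the genes, and the 250 bases upstream of each were searched on both strands. The 4 stretches below hold a motif and lie outside the annotated gene. Capitals mark motif letters, and each is read 5′ to 3′ on the strand of the gene.
Afp, chr5:90490464-90490713, plus strand: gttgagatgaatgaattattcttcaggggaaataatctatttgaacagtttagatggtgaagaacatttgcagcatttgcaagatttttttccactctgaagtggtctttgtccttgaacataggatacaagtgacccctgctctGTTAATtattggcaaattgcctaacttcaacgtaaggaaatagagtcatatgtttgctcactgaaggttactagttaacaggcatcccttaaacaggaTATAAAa
Apoa2, chr1:171224804-171225053, plus strand: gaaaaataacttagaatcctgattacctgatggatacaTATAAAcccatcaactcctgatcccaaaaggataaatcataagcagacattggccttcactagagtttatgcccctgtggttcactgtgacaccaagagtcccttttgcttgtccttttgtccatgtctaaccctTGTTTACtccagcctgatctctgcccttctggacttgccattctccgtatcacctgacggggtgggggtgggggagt
Apob, chr12:7977427-7977647, plus strand: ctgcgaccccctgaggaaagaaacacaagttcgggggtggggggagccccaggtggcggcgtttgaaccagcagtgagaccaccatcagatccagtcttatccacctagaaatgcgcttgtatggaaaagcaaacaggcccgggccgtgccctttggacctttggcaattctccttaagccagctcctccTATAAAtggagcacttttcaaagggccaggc
Rbp4, chr19:38125322-38125571, minus strand: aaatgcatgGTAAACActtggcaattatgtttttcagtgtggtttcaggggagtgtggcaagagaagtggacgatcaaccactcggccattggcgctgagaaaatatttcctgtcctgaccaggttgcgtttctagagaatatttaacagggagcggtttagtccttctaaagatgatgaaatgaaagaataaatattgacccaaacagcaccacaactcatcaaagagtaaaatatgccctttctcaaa

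The Afp stretch has the HNF1 motif GTTAAT at positions -105 to -100 from the RefSeq start and TATAAA at -7 to -2. The Apoa2 stretch has TATAAA at -212 to -207 and the FOXA motif TGTTTAC at -77 to -71. Apob has TATAAA at -60 to -55, and Rbp4 has GTAAACA, the reverse complement of TGTTTAC, at -241 to -235. Over the 13 windows, GTTAAT or its reverse complement was in 3 (23.1%), those of Afp, Fga and a start of Apoe, against 6.43% of 32851 promoter windows in the table. A FOXA motif (TGTTTAC or TATTTAC) was in 2 (15.4%) against 5.76%, and TATAAA was in 5 (38.5%) against 12.4%. The nuclear receptor motif AGGTCA was in 1 (7.69%) against 14.0%. The HNF4 motif CAAAGTCCA and the GATA motifs AGATAA and TGATAA were in 0 windows, against 0.384% and 16.6% of all windows. Matches of TATAAA on both strands of an Apoe window overlap each other. These matches are letters only and were not tested for binding.

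Among the carriers, Afp (ENSMUSG00000054932, chromosome 5, 90490737 to 90508907) was at 15.9, 35.4 and 45.6 RPKM in WT replicates 1, 2 and 3 and at 64.0, 10.04 and 4.54 RPKM in MommeD43 replicates 1, 2 and 3. The highest and the lowest library thus both belonged to MommeD43, 14.1-fold apart, with the WT libraries between them. Group means were 32.3 ± 15.1 RPKM in WT and 26.2 ± 32.8 RPKM in MommeD43 (SD, n = 3 each).

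Ttr (ENSMUSG00000061808, chromosome 18, 20665280 to 20674321), which encodes transthyretin, was at 29.0, 66.3 and 69.9 RPKM in WT and at 108, 12.6 and 13.9 RPKM in MommeD43. Rbp4 (ENSMUSG00000024990, chromosome 19, 38116629 to 38125281), which encodes plasma retinol-binding protein, was at 32.3, 54.1 and 67.5 RPKM in WT and at 89.3, 14.5 and 10.6 RPKM in MommeD43. Both had the same library on top as Afp and the same pair at the bottom, and both spanned a similar range of 8.61-fold and 8.39-fold. The exact 95% counting intervals of Ttr overlapped between MommeD43 2 and 3 and between WT 2 and 3, whereas those of Rbp4 were apart for every pair of neighbouring libraries.

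Apoa1 (ENSMUSG00000032083, chromosome 9, 46228580 to 46230466), the main protein of high-density lipoprotein, had the steepest range among the abundant genes. It was at 42.8, 58.8 and 61.1 RPKM in WT and at 124, 8.52 and 3.09 RPKM in MommeD43, a range of 39.97-fold. Among the WT libraries alone it varied 1.43-fold. Apoa4 (ENSMUSG00000032080, 46240696 to 46243459 in the same cluster), an apolipoprotein of triglyceride-rich particles, was at 6.67, 6.46 and 10.4 RPKM in WT and at 16.4, 1.83 and 0.379 RPKM in MommeD43. Its lowest value rested on 9 reads (interval 0.173 to 0.719 RPKM). A gene on the other strand covers 69.8% of the exons of Apoa4, and whether counting used strand is not given in the sources used here, so its reads are uncertain.

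Apoa2 (ENSMUSG00000005681, chromosome 1, 171225054 to 171226379), another protein of high-density lipoprotein, was at 3.36, 3.23 and 3.81 RPKM in WT and at 6.12 and 1.30 RPKM in MommeD43 1 and 2. It had 0 reads in MommeD43 3, where the floor of 3 reads stands at 0.427 RPKM, so that MommeD43 1 was at least 14.3-fold higher. The WT libraries did not differ beyond counting error, and in the order of levels the intervals of WT 3 and MommeD43 1 also overlapped.

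Apob (ENSMUSG00000020609, chromosome 12, 7977648 to 8016835), the structural protein of very low and low density lipoprotein, was at 3.80, 14.7 and 13.5 RPKM in WT and at 15.6, 1.70 and 2.48 RPKM in MommeD43. Here WT 1 stood well below the other WT libraries, and the intervals of WT 2 and MommeD43 1 overlapped. Apom (ENSMUSG00000024391, chromosome 17, 35128997 to 35132050), a small apolipoprotein that carries sphingosine 1-phosphate, was at 9.60, 15.2 and 15.1 RPKM in WT and at 23.3, 2.57 and 2.56 RPKM in MommeD43. MommeD43 1 was again on top and MommeD43 2 and 3, which were not told apart, at the bottom, with the intervals of WT 2 and WT 3 overlapping.

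Apoe (ENSMUSG00000002985, chromosome 7, 19696109 to 19699188), the ligand by which remnant lipoproteins enter cells, is made by many cell types. It was at 43.1, 60.4 and 57.5 RPKM in WT and at 92.5, 20.6 and 33.8 RPKM in MommeD43. The order of libraries resembled that of the others, but the range, 4.49-fold, was the smallest of the 10 genes.

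Fga (ENSMUSG00000028001, chromosome 3, 83026076 to 83033627), the fibrinogen alpha chain of blood clots, was the least abundant gene. It was at 0.218, 1.05 and 0.939 RPKM in WT and at 2.82, 0.246 and 0.203 RPKM in MommeD43, from 8 to 93 reads. WT 1 lay between MommeD43 3 and MommeD43 2, and the intervals of these 3 libraries overlapped in order.

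**Figure D1:**
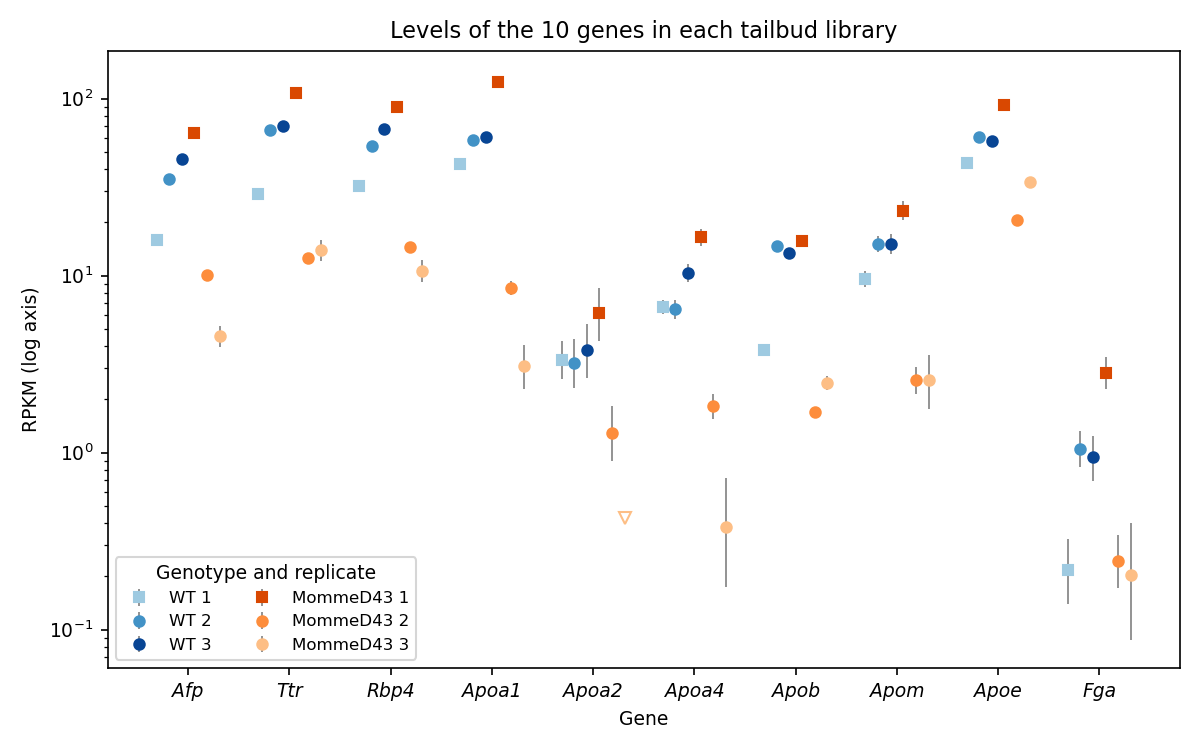
RPKM of each gene (log axis) in the 6 libraries, with WT in blue, MommeD43 in orange, squares for males and circles for females. Bars are exact 95% intervals for counting error, and the open triangle is the floor of 3 reads for Apoa2 in MommeD43 3, which had 0 reads. The dark orange square, MommeD43 1, is on top for each of the 10 genes, and the light orange circles, MommeD43 2 and 3, are lowest for all but Fga.

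Put side by side, the 10 genes ranked the libraries alike. MommeD43 1 was the highest library in 10 of 10. In 9 of 10, MommeD43 2 and 3 were also the lowest libraries, Fga being the exception, and 1.91% of 13617 autosomal genes tested had that arrangement. MommeD43 3 was the lowest library for 7 genes and MommeD43 2 for 3, Ttr, Apob and Apoe. A range over 4-fold was found in 10 of 10 genes and in 4.43% of autosomal genes. Both shares follow in part from the choice of genes with a wide spread, and nothing is read from them.

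On the log2 scale the SD over the 6 libraries was 0.75 for Apoe to 2.03 for Apoa2, where the median autosomal gene had 0.14. The SD among MommeD43 embryos exceeded that among WT embryos in 10 of 10 genes, from 1.57 times for Apob to 22.6 times for Apoa2. The last of these includes the library without a read. The highest and the lowest library were both in MommeD43 for 10 of 10 genes, which were picked for spread. The larger SD thus follows in part from the choice, its share over all genes was not counted, and nothing is read from it. In the order of levels, 14 of 50 pairs of neighbouring libraries had overlapping counting intervals. The genes together took 0.110% of all reads in MommeD43 1 (interval 0.108 to 0.112%), 0.0353 to 0.0752% in WT, and 0.0154% and 0.0161% in MommeD43 2 and 3. Summed RPKM ranged from 71.7 to 542, or 7.56-fold. In bulk tissue, fewer cells of a type and less RNA per cell cannot be told apart.

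The genes rose and fell together, but not all in the same proportion. Over the 6 libraries, each gene's log2 RPKM had a Pearson r of 0.862 to 0.996 with the mean of the others, and the 45 pairs had r from 0.60 (Apoa2 and Apoe) to 0.99 (Afp and Rbp4), with a median of 0.92. The points share their libraries and the wide spread for which the genes were picked, so these values are descriptions. Relative to Ttr in the same library, Rbp4 varied 1.52-fold, Apob 1.68-fold and Apom 1.80-fold. These ratios spanned far less than the levels, which changed 8.39- to 9.20-fold in these 3 genes.

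Apoa1 and Apoa4 on chromosome 9 behaved differently, as did Apoa2 on chromosome 1. Relative to Ttr, Apoa2 ran from 0.0487 in WT 2 to 0.116 in WT 1 and had 0 reads in MommeD43 3. The ratio of Apoa1 to Ttr was 1.48, 0.887 and 0.875 in WT, 1.14 in MommeD43 1, 0.679 in MommeD43 2 and 0.222 in MommeD43 3. That of Apoa4 to Ttr fell from 0.230 in WT 1 to 0.0272 in MommeD43 3, 8.45-fold. Apoe moved the other way: its ratio to Ttr was highest in MommeD43 3 (2.43) and lowest in WT 3 (0.823). The ratio of Apoa1 to Apoe spanned 14.6-fold, and in MommeD43 3 it was 0.0913.

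The 2 MommeD43 females, similar in summed level, thus differed in composition. Afp, Rbp4, Apoa1, Apoa2 and Apoa4 were lower in MommeD43 3 than in MommeD43 2, with counting intervals apart, whereas Apob and Apoe were higher. Ttr, Apom and Fga did not differ between them beyond counting error. The most abundant gene also changed: it was Apoe in WT 1 and in MommeD43 2 and 3, Ttr in WT 2 and 3, and Apoa1 in MommeD43 1.

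**Figure D2:**
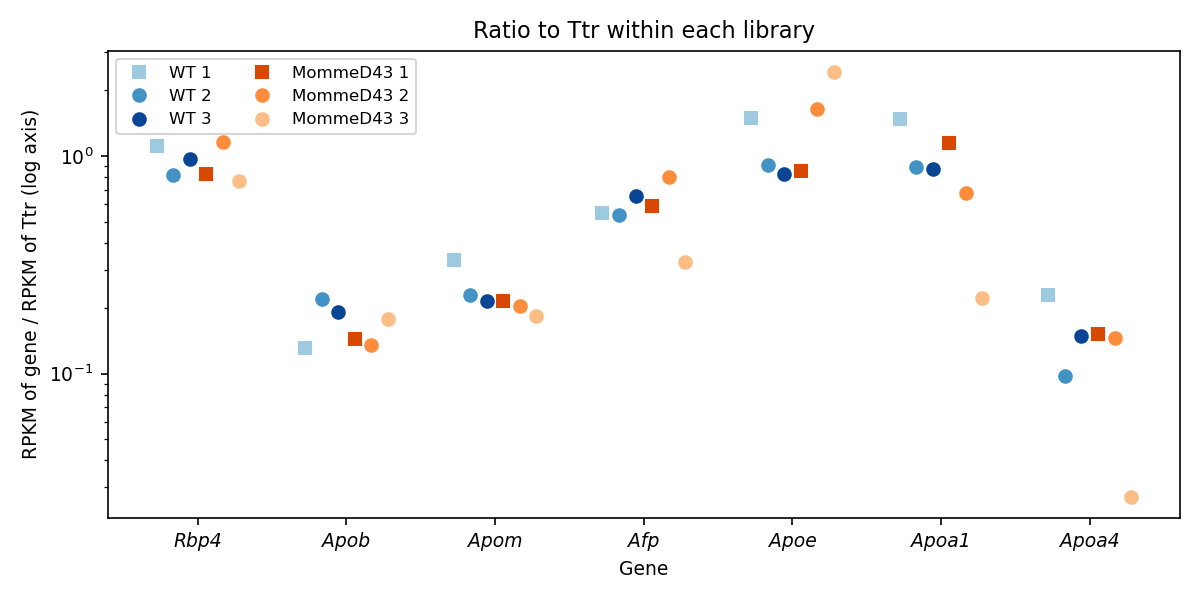
RPKM of 7 genes divided by RPKM of Ttr in the same library (log axis), with colours and symbols as for the plot of levels. Ratios of Rbp4, Apob and Apom lie within 1.80-fold, whereas those of Apoa1 and Apoa4 drop in MommeD43 3 to 0.222 and 0.0272.

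The study's design asks whether the MommeD43 variant changes expression in the tailbud. On the log2 scale the mean was lower in MommeD43 for 10 of 10 genes, with log2 fold changes from -0.21 ± 1.02 (SE) for Fga to -1.85 ± 1.12 for Apoa1. The median of the 10 was -1.11, where that of all autosomal genes was 0.0025. None of these differences exceeded the spread between embryos: 0 of 10 passed, as did 0.0% of 13617 autosomal genes, with a smallest adjusted p of 0.999 (limma, Benjamini-Hochberg). At an unadjusted p under 0.05 there were 327 autosomal genes and none of the 10. The groups overlapped for each of the 10 genes, whereas 7.08% of autosomal genes had groups that did not. With Apoa2 set at its floor in MommeD43 3, its log2 fold change was -1.20 in place of the fitted -1.78. For Fga the mean RPKM itself was higher in MommeD43 (1.09 ± 1.50 against 0.737 ± 0.454, SD, n = 3).

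The size of the group difference depended on single libraries. The median log2 fold change of the 10 genes was -2.14 without MommeD43 1 and -0.46 without MommeD43 3. Without MommeD43 2, Apoe and Fga were higher in MommeD43 (0.08 and 0.34), and Fga was also higher without WT 2, WT 3 or MommeD43 3.

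The male pair and the females moved in opposite directions. In the females the log2 difference, MommeD43 minus WT, was negative for 10 of 10 genes, from -1.16 for Apoe to -3.55 for Apoa1. In the males, with 1 embryo of each genotype, it was positive for 10 of 10, from 0.87 for Apoa2 to 3.69 for Fga. The difference of these effects had a median of 4.42 over the 10 genes and of -0.02 over all autosomal genes.

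In a limma fit with a coefficient for each genotype and sex, which leaves 2 residual degrees of freedom, both from the females, so that the single male of each genotype is assumed to vary like them, this difference passed for 6 of the 10 genes and for 0.206% of autosomal genes in the positive direction. These were Ttr (4.26 ± 0.12, adjusted p = 0.000111), Apom (3.84 ± 0.14, adjusted p = 0.000232), Apob, Rbp4, Fga and Afp (adjusted p = 0.0052 to 0.048), by limma over 13617 genes. Apoa1, Apoe, Apoa4 and Apoa2 had differences of 5.08, 2.26, 4.60 and 3.97 that did not pass, that of Apoa2 being 3.10 with MommeD43 3 at its floor. With other filters or voom, Apoa1 and Apoe passed, and with voom Apoa4 did. The libraries that set this contrast are those for whose spread the genes were picked, so the calls are a description and no evidence of a sex difference. With females alone, 2 against 2, 4 of the genes passed (Ttr, Apom, Rbp4 and Apob), out of 10 called among 13617 autosomal genes. These calls rest on MommeD43 2 and 3, which set the low end of the spread for which the genes were picked. They are a description and no evidence of a genotype effect in females.

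**Figure D3:**
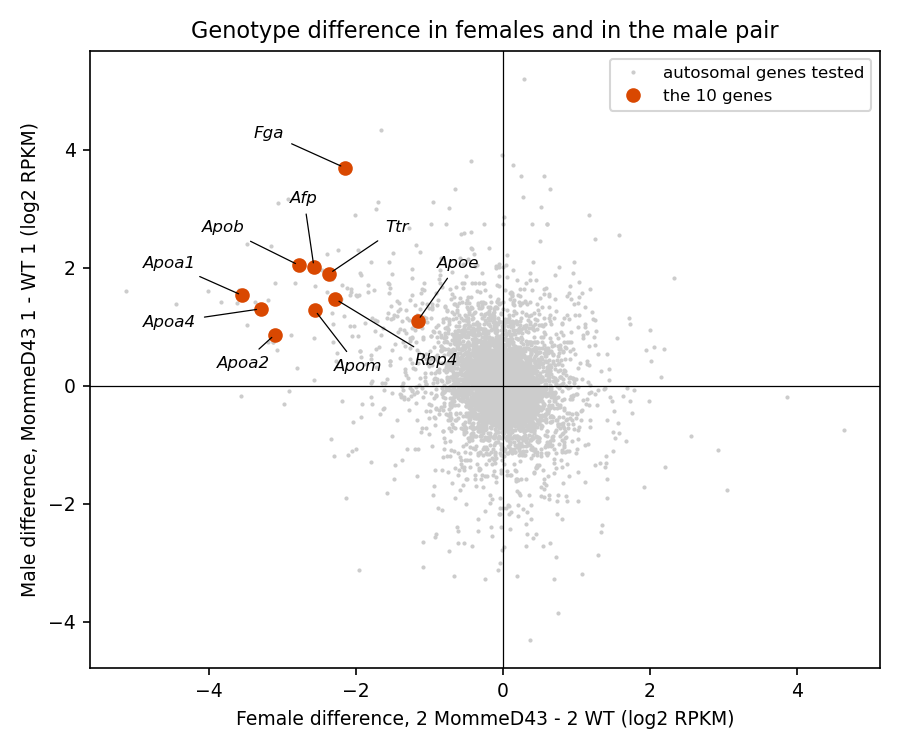
Log2 RPKM difference, MommeD43 minus WT, in females (horizontal axis, 2 embryos of each genotype) and in the male pair (vertical axis, 1 embryo of each). Grey dots are the autosomal genes tested and orange circles the 10 genes. All 10 lie at the upper left, from -3.55 to -1.16 in females and from 0.87 to 3.69 in males.

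Neighbouring genes of the same clusters were examined next. Fgb and Fgg, which encode the other fibrinogen chains beside Fga, followed it: Fgb was at 0.702, 1.61 and 1.69 RPKM in WT and 2.32, 0.494 and 0.642 RPKM in MommeD43, and Fgg at 0.861, 1.48 and 1.93 RPKM and 3.01, 0.515 and 0.219 RPKM. In the cluster of Apoe, Apoc1, an inhibitor of lipoprotein uptake, was at 2.68, 2.33 and 3.40 RPKM in WT and 4.78, 1.17 and 1.75 RPKM in MommeD43. Apoc2, the cofactor of lipoprotein lipase, ranged from 1.41 RPKM in MommeD43 3 to 35.4 RPKM in MommeD43 1, but another gene on the same strand shares 79.5% of its exons, so its reads are uncertain. Apoc4 had 2 reads in WT 3 and none elsewhere.

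Beside Apoa1, Apoc3, an inhibitor of lipoprotein lipase, held between 0 reads in MommeD43 3 and 19 reads in WT 1. Apoa5, in the same cluster, did not share the pattern, at 0.379 to 0.722 RPKM with r of 0.16 to the mean of the 10 genes. It rests on 16 to 69 reads, and a gene on the other strand covers 20.8% of its exons, so its reads are uncertain as well. Alb and Afm, which lie beside Afp and encode albumin and afamin, had 0 reads in every library. Of the 5 neighbours tested, 0 passed between genotypes and 1, Fgb, for the difference between male pair and females.

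The machinery that loads and clears lipoproteins was mixed. Of 20 genes, 0 of 19 tested passed between genotypes. The list summed to between 372 and 422 RPKM, of which P4hb alone, a subunit of the lipid transfer complex with wide roles in the secretory pathway, made up 289 to 342 RPKM. Sar1b, a coat protein of secretory vesicles, was at 32.7 to 34.2 RPKM, and the uptake receptor Lrp1 at 8.49 to 12.3 RPKM. Mttp, which loads lipid onto apolipoprotein B, was at 2.96, 4.92 and 4.84 RPKM in WT and at 6.47, 2.58 and 2.97 RPKM in MommeD43, with a difference between male pair and females of 1.95 ± 0.22 (limma adjusted p = 0.036). MommeD43 1 was highest and MommeD43 2 and 3 lowest in 3 of the 19, Soat2, Cideb and Abca1, named after their values were seen. Soat2, which esterifies cholesterol, ranged from 0.210 RPKM in MommeD43 2 to 2.56 RPKM in MommeD43 1, and the lipid exporter Abca1 from 1.62 to 2.13 RPKM. Cideb, a protein of lipid droplets, varied 4.62-fold, but a gene on the other strand covers 76.3% of its exons.

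Genes that take up or convert the cargo of Rbp4 and Ttr were level as well. Their 14 genes summed to 314 to 373 RPKM, and 0 of 10 tested passed in either comparison. Crabp1 and Crabp2, which bind retinoic acid inside cells, were at 141 to 180 and 93.2 to 106 RPKM.

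Other plasma proteins known from yolk sac and liver shared the pattern in part. Of 11 tested, 2, Trf and Spp2, had MommeD43 1 highest and MommeD43 2 and 3 lowest, and 4 had r above 0.9. The 22 genes of this list summed to 27.4 RPKM in MommeD43 1 and 4.70 RPKM in MommeD43 3, and 0 of 11 tested passed between genotypes. Most of the sum in MommeD43 1 came from Trf (10.9 RPKM) and Spp2 (8.74 RPKM). Trf, which encodes transferrin, was at 3.61, 4.67 and 6.60 RPKM in WT and at 10.9, 1.85 and 1.31 RPKM in MommeD43, but another gene on the same strand shares 63.5% of its exons, so its reads are uncertain. Spp2 held 122, 127 and 113 reads in WT and 95, 47 and 1 in MommeD43. Vtn, which encodes vitronectin, ranged from 0.414 to 2.04 RPKM. Apoh, a plasma protein of adult liver, had 0 reads throughout.

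Genes for uptake by visceral endoderm shared the pattern in part. Of 9 tested, 6 had MommeD43 1 highest and MommeD43 2 and 3 lowest, and the list summed to 55.2, 80.6 and 79.9 RPKM in WT and 106, 40.8 and 45.7 RPKM in MommeD43. Cubn, which encodes the receptor cubilin, was at 2.06, 5.30 and 4.80 RPKM in WT and at 6.90, 0.487 and 0.706 RPKM in MommeD43. The adaptor Dab2 ranged from 6.83 to 19.7 RPKM, the protease Lgmn from 18.1 to 46.8 RPKM, and the protease Tmprss2 from 6.86 to 9.77 RPKM. Lrp2, the receptor that works with cubilin and is also made by other epithelia, was at 2.35, 5.06 and 3.49 RPKM in WT and at 3.84, 4.18 and 3.60 RPKM in MommeD43, and did not share the pattern (r of 0.10; named after its values were seen). Between genotypes 0 of 9 passed. Cubn, Dab2 and Lgmn passed for the difference between male pair and females, with the limit of the single male embryos given above.

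Among the transcription factors of visceral endoderm, 3 of 11 tested had MommeD43 1 highest and MommeD43 2 and 3 lowest: Hnf4a, Gata4 and Creb3l3. Hnf4a was at 1.14, 1.68 and 2.38 RPKM in WT and at 3.31, 0.482 and 0.522 RPKM in MommeD43. Creb3l3, named after its values were seen, ran from 0.0253 RPKM in MommeD43 3 to 0.968 RPKM in MommeD43 1 (r of 0.97). Its lowest value lies below the floor of 3 reads, so this range and r are uncertain. Gata4, Foxa2 and Foxa1 varied less, at 2.22 to 4.82, 3.19 to 4.95 and 2.31 to 3.98 RPKM, and are also made by gut endoderm. Of 11 tested, 0 passed between genotypes and 1, Hnf4a, for the difference.

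Markers of other tissues that a tailbud dissection can hold were examined as well. The 12 genes of gut and surface epithelium, which hold keratins, claudins and others, summed to 435 to 580 RPKM. Krt8 was at 126 to 185, Krt18 at 119 to 182 and Cldn6 at 66.6 to 76.7 RPKM. Allantois and extraembryonic mesoderm genes summed to 160 to 189 RPKM, with Hand1 at 46.8 to 67.4, Foxf1 at 32.7 to 46.4 and Bmp4 at 26.4 to 32.9 RPKM. Endothelial genes summed to 26.1 to 49.2 RPKM, with Kdr at 11.4 to 17.8, Cdh5 at 4.54 to 10.1 and Tek at 2.04 to 5.87 RPKM. The endothelial sum was highest in MommeD43 1 (49.2 RPKM) and lowest in WT 1, its 8 genes had a median difference between male pair and females of 1.12, and Kdr had r of 0.82 with the mean profile of the 10 genes. Spink1, of the gut list and named after its values were seen, was also highest in MommeD43 1 (71.7 RPKM) and lowest in MommeD43 2 (21.5 RPKM), with r of 0.80. In these 3 lists and in those of blood and trophoblast 0 genes passed in either comparison, and their part in the pattern of the 10 genes was not tested.

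Blood and trophoblast genes also varied widely, and their list sums peaked in WT 2 and in MommeD43 2. Primitive blood genes summed to 17.2, 491 and 251 RPKM in WT and to 50.2, 231 and 48.6 RPKM in MommeD43. Hbb-bh1, an embryonic globin, was at 2.63, 299.9 and 113 RPKM in WT and at 7.89, 124 and 9.85 RPKM in MommeD43, so MommeD43 2, low for the 10 genes, was high in globin. Hba-x and Hbb-y ranged from 0.728 to 119 and from 0.483 to 48.6 RPKM. Trophoblast and decidua genes summed to 25.4 RPKM in MommeD43 2 and to 2.47 RPKM in WT 2. Prl3d1 ranged from 0 reads in WT 2 to 14.3 RPKM in MommeD43 2, Prl8a2 from 1.31 to 7.77 RPKM, and Gzmd from 0 reads in MommeD43 3 to 4.26 RPKM in MommeD43 1. Prl8a2 and Gzmd thus were highest in the same library as the 10 genes.

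The sum of the tailbud list varied 1.37-fold, at 1274, 948 and 999 RPKM in WT and 932, 1097 and 1184 RPKM in MommeD43. Its tested genes had a median SD of 0.26 on the log2 scale, where the median autosomal gene had 0.14. T, Msgn1, Wnt3a and Evx1, factors of tailbud progenitors and early mesoderm, had negative differences between male pair and females of -0.91, -1.06, -1.36 and -0.91. The median difference was -0.79 over the tested genes of the list and -0.02 over all autosomal genes. T, Msgn1, Wnt3a and Evx1 were each highest in WT 1, the only WT male, as with T at 188 RPKM against 117 to 141 elsewhere. The male side of these differences rests on 1 embryo of each genotype, so they are a description. Cdx4 and Cdx2 were at 172 to 276 and 148 to 183 RPKM. Of 13 tested, 0 passed between genotypes.

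**Figure D4:**
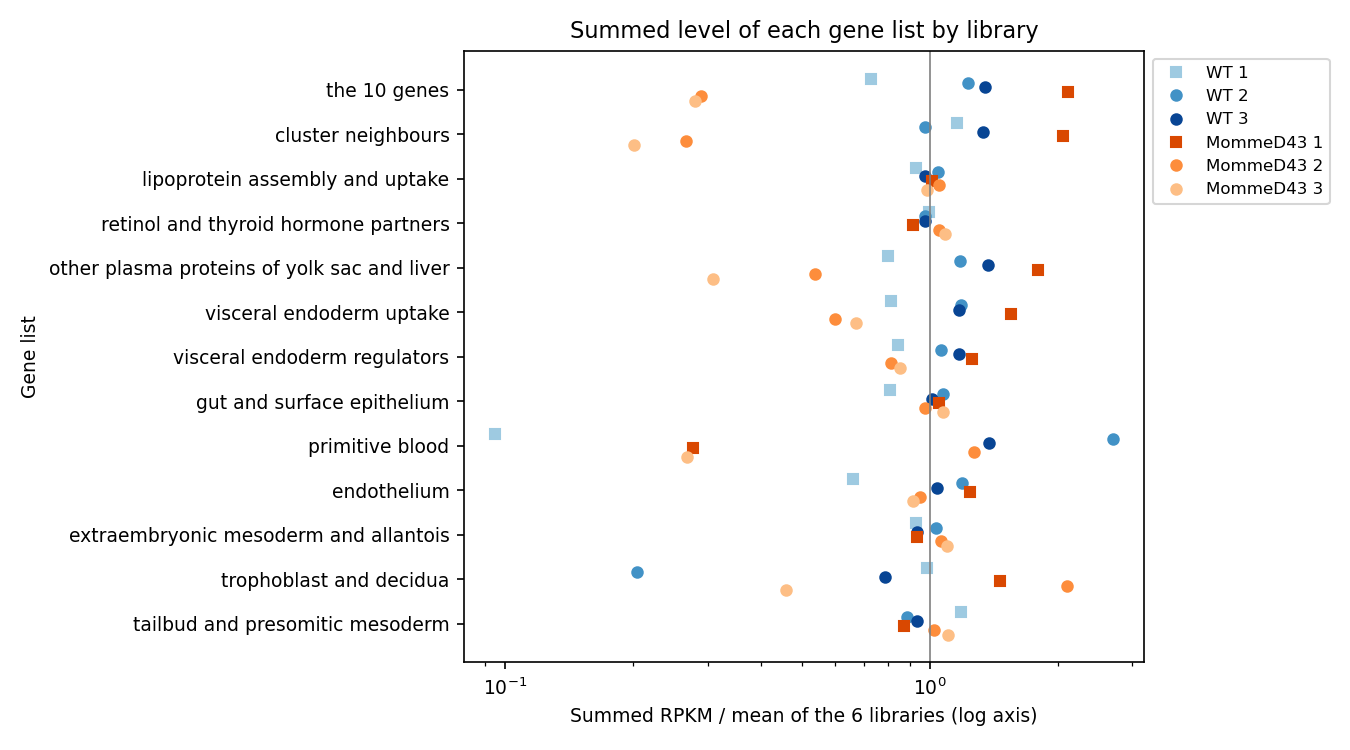
Summed RPKM of each gene list in each library, divided by the mean of the 6 libraries (log axis), with colours and symbols as before. MommeD43 1 is on top and MommeD43 2 and 3 are at the bottom for the 10 genes. The same holds for cluster neighbours, other plasma proteins and visceral endoderm uptake, but not for the other lists, blood, trophoblast and tailbud genes among them. For visceral endoderm regulators MommeD43 1 is on top, but WT 1 (21.2 RPKM) lies below MommeD43 3 (21.4 RPKM).

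Genes most like the 10 were sought among 13607 other autosomal genes by Pearson r of log2 RPKM with their mean profile over the 6 libraries. The 10 with the highest r were Lgals2, Slc38a6, Fbxo28, Fgg, Pdzd3, Trf, Serpinf2, Pla2g12b, Adora2b and 2810459M11Rik, with r from 0.981 to 0.996. Without MommeD43 2 and 3, the libraries farthest from the median, r was 0.923 to 0.9996 over the 4 that remained. Their ranges differed: Pdzd3, which encodes a scaffold protein of epithelia, varied 24.5-fold and Lgals2, a galectin, 9.26-fold. Serpinf2, the plasma inhibitor of plasmin, varied 9.56-fold, and Pla2g12b, a phospholipase-like protein of lipoprotein secretion, 6.14-fold. Slc38a6 varied 1.69-fold and Fbxo28 1.10-fold, so likeness in order did not mean likeness in size. All share the same 6 libraries, and no function is read from the likeness.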

How the data were processed

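Total RNA of tailbud tissue was made into TruSeq libraries and sequenced. Per the labels and the study's methods, the authors trimmed reads with TrimGalore 0.4.4, mapped them with hisat2 2.0.5 to GRCm38.p6 and quantified genes in SeqMonk. The source field of the labels names neural stem cells, whereas tissue and titles name tailbud, which was followed. The deposited values are log2 RPKM, which the authors made from reads per gene, exon length and library size. The authors' mean columns of each group were not used.

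The 10 genes, the gene lists and the tests were chosen with earlier results of these data known. Of 35591 rows, 35555 matched GENCODE M21 (99.4% at the same coordinates), which gave exon lengths. Genes without a read sat at 0.9 read, which gave library totals. Of 105819 values above that level, 99.0% of those under 1000 reads were whole within 0.02 reads. For 49 repeated identifiers the row of highest mean was kept, and 14671 genes without a read were left out. Genes were kept where 3 libraries reached the depth-scaled count of 10 reads in a library of median size, with 15 reads in all: 14134 genes, 13617 autosomal.

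Autosomal genes were fitted in R 4.3.3 by limma 3.58.1 without a pseudocount, letting the prior variance follow mean expression, and with Benjamini-Hochberg adjustment over all of them and two-sided p-values. A second fit had a coefficient for each genotype and sex. Replicates are single embryos. Counting intervals are exact (Clopper-Pearson, 95%) and, like the floor of 3 reads, cover counting error only. The code was tested on simulated data. Named genes were the 10, cluster neighbours with a read, in each other list the 3 of highest mean RPKM and any with an adjusted p under 0.05 in either fit, and the 10 of highest r; Apoh, Alb and Afm are named for their 0 reads. A gene that this rule names is not reported here. Alternatives were pseudocounts of 0.1 and 1 RPKM, median-ratio and TMM scaling of recovered reads, a stricter filter and none, a term for sex, the replicate block, only the females, leaving out each library, and voom. Sequences are from RefSeq. The remaining steps used Python 3.11.15 with pandas 2.3.3, numpy 2.4.6, matplotlib 3.10.9 and scipy 1.17.1.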

Additional observations from a re-analysis of the deposited data

Results flagged for a closer look

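The genotype effect in the male pair minus that in females, on the log2 scale and tested with limma over 13617 autosomal genes, passed an adjusted p of 0.05 for 17 of the genes named in the lists. Among the 10 secreted genes these were Fga (5.85), Apob (4.81), Afp (4.58), Ttr (4.26), Apom (3.84) and Rbp4 (3.75). Among the other genes of visceral endoderm and its secretions they were Cubn (4.85), Hnf4a (3.54), Trf (3.42), Fgb (3.28), Dab2 (2.42), Mttp (1.95) and Lgmn (1.72). In the tailbud list they were Wnt3a (-1.36), Msgn1 (-1.06), Evx1 (-0.91) and T (-0.91). The male side of each difference rests on 1 embryo of each genotype, both from the same mother, and the females alone supply the spread. Sex, litter and the single embryo cannot be told apart.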

How the results depend on the processing

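Between genotypes, 0 autosomal genes and 0 of the 10 passed under every alternative except females alone, where 10 genes and 4 of the 10 passed. Those 4 calls share the spread for which the genes were picked and are a description. The counts at an unadjusted p under 0.05 ran from 187 to 1188 over the alternatives. For the difference between male pair and females, 37 genes passed, against 111 without the filter, 67 with a stricter filter and 121 with voom on recovered reads. The cause was not tested. Leaving out each library in turn, the median log2 fold change of the 10 genes ran from -2.14 (without MommeD43 1) to -0.46 (without MommeD43 3). Fga turned to 0.0795 with a pseudocount of 1 RPKM, and leaving out a library moved it between -1.42 and 0.473 (0.202 and 0.118 without WT 2 and WT 3, 0.335 and 0.473 without MommeD43 2 and 3). Apoe ran from -1.01 to 0.0756, the latter without MommeD43 2. The difference of Afp no longer passed with median-ratio or TMM scaling (limma adjusted p = 0.0514 and 0.0522). Those of Apoa1 and Apoe passed without the filter (0.00286 and 0.00605), with the stricter filter (0.0211 and 0.0401) and with voom (6e-05 and 0.00197), that of Apoa1 also with a pseudocount of 1 RPKM (0.0374), and that of Apoa4 with voom (0.012). With a pseudocount of 1 RPKM the range of Apoa2 was 4.99-fold and that of Fga 3.17-fold. Replicate number 1 ties embryos of the same mother, whereas numbers 2 and 3 tie embryos of different mothers, and the numbers were not taken as pairs: same-numbered libraries had correlations of -0.026, 0.167 and -0.173 in their deviations from the group means, not every library correlated best with its own number, and with the replicate block 0 genes passed, with 307 at an unadjusted p under 0.05. Fga rests on 8 to 93 reads, and Apoa2 on 0 to 66.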

Other observations

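Genes with a profile opposite to that of the 10 secreted genes were as many as genes with the same profile, but varied less. Of 13607 other autosomal genes, 174 had r above 0.9 with the mean profile over the 6 libraries and 179 had r below -0.9. Of the 299 genes with an SD over 1 on the log2 scale, 41 were among the former and 0 among the latter. These are counts across genes that share 6 libraries.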
